A study of Mus musculus with 6 samples.

Results

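G protein-coupled receptors were followed in RAW 264.7 cells, a mouse macrophage line from a virus-induced tumour, after stimulation with bacterial lipopolysaccharide (LPS). These are membrane proteins that cross the membrane several times and pass a signal from outside the cell to G proteins inside it. Some of them guide macrophages and other leukocytes toward chemokines, bacterial peptides or nucleotides from damaged cells, and others change cyclic AMP, which dampens many inflammatory responses. Members were all genes of the array's annotation whose symbol begins with a receptor family name, such as Gpr with a number, Ccr, Cxcr, P2ry, Ptger, S1pr, Htr or Adgr. They numbered 102 of 10698 named genes, on 185 probes. The name rule also takes in Htr3a and Htr3b, which are serotonin-gated ion channels, Ptgfrn, an immunoglobulin-type membrane protein, and Gpr89, an ion channel of the Golgi.

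Total RNA of untreated RAW 264.7 cells was set against total RNA of cells given LPS at 100 ng/ml together with LPS-binding protein (LBP) at 100 pM, both cultured for 4 h. Part of the labels write the treated line as RAW 264.4. The treated and the untreated RNA shared each of 6 two-colour arrays, numbered as sets 1, 2 and 3 in each of 2 dye orientations: 3 arrays carried treated RNA in Cy5 (red) and 3 carried it in Cy3 (green). All material came from 1 cell line in culture. Whether each set was a culture of its own is not given by the labels. The p-values therefore reflect only how far these sets differ, for the gene and for all features pooled, which may be technical variation.

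Each value is a log2 ratio of treated over untreated RNA, so that 1 is a doubling. The labels call Cy5 the test channel, so red over green was taken as the direction of the ratio. That direction is likely but not stated, and the opposite convention would turn every sign below. Where treated RNA was in Cy3, the sign of each value was turned, and such values are printed turned. Each set gave 1 value, the mean of its 2 orientations. A gene was called higher or lower when its Benjamini-Hochberg adjusted p over the whole table was below 0.05. The p came from limma's test of the 3 set values against 0. That test draws the error of each gene toward that of all features, so its p-value does not follow from the printed SD alone. Ratios carry no level, so genes are not compared by abundance, and lower RNA per cell cannot be told apart from fewer cells that hold it.

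Across the 6 arrays, 14195 to 15027 of 16281 probes had a measured value. Arrays of 1 orientation correlated at 0.747 to 0.851 across probes, and arrays of opposite orientation, before turning, at -0.760 to -0.374. Of 9 macrophage marker genes tested, 5 were called higher and 1 lower, with mean log2 ratios from -0.30 to 1.14. Among the 5 is Adgre1, which is also counted among the receptor genes, so the markers are not independent of them. Over all features, 14% were called higher and 15% lower. Among markers of other cells, 1 of 7 for T cells and 1 of 8 for neutrophils were called higher, and 0 of 5 for B cells, 0 of 6 for fibroblasts and 0 of 7 for neurons were called in either direction. These are changes, not levels, and their part in the receptor values was not tested.

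Most receptor genes were not called, and a few moved strongly. Of the 102 genes, 93 had a value on all 6 arrays and entered the test, 6 had values on some arrays (Ccrl2, Gpr45, Htr2a, Htr5b, P2ry13 and Ptger1), and 3 had none (Ccr7, Chrm3 and Gpr165). Among the 93, 14 genes, or 15.1%, were called higher, beside 14% of all 11364 features in the table. Another 7 genes, or 7.53%, were called lower, beside 15% of all features. The share called higher was thus near the background and the share called lower was below it, and that difference was not tested. The median log2 ratio of the receptor genes was 0.017 and that of all features was 0.00079. The median absolute log2 ratio was 0.062 for receptors and 0.083 for all features. Changes of at least 2-fold were seen in 3 receptor genes (3.23%, beside 2.03% of all features): Gpr84, Fpr2 and Adgre1. Of the 21 called genes, 16 had the same sign on all 6 arrays. That agreement is partly built in, since the calls were made from the same arrays, and it was not counted over all called features.

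**Figure D1:**
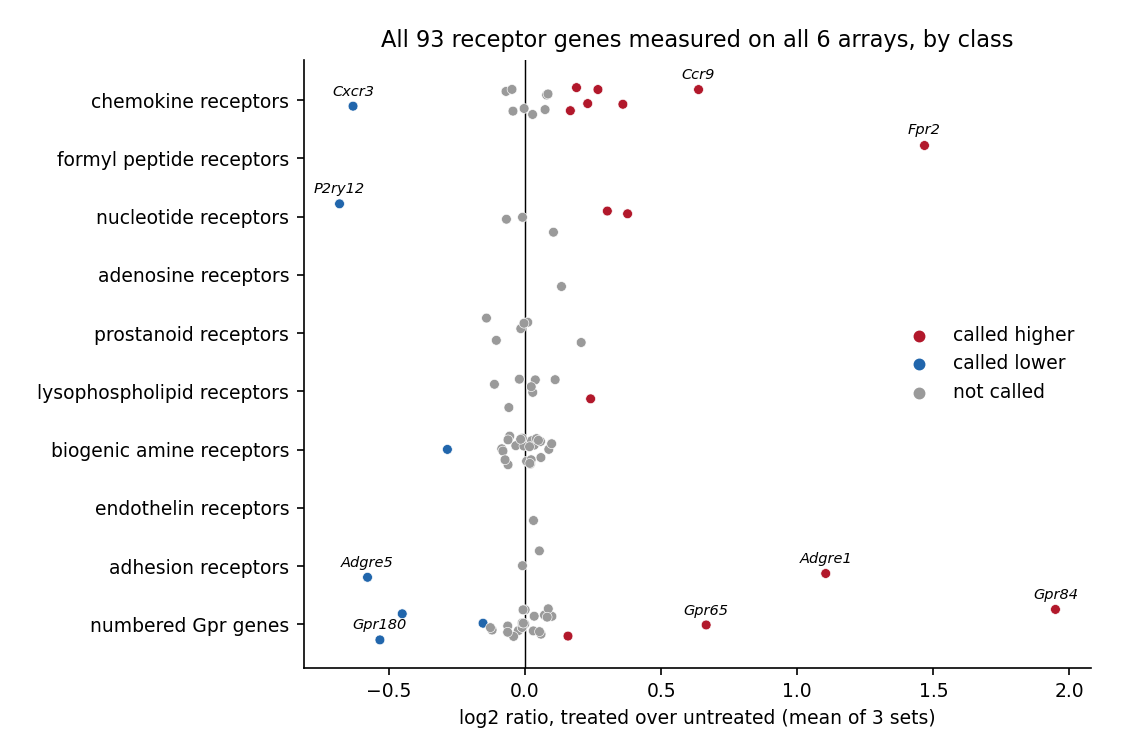
Mean log2 ratio (treated over untreated, x axis) of each of the 93 receptor genes measured on all 6 arrays, grouped on the y axis by ligand class or family. Red points are called higher, blue points lower and grey points not called. Gpr84, Fpr2 and Adgre1 lie beyond 1, and nearly all biogenic amine and prostanoid receptors lie close to 0.

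Gpr84, a receptor for medium-chain fatty acids, had the largest rise of the 93 genes. Its log2 ratios with treated RNA in Cy5 were 1.76, 1.94 and 1.89 in sets 1, 2 and 3, and with treated RNA in Cy3 they were 1.91, 2.12 and 2.06. All 6 arrays lay well above 0, and the orientations overlapped. The mean was 1.95 ± 0.10 (SD, n = 3 sets), a 3.86-fold rise (limma, adjusted p = 3.36e-07).

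Fpr2, a formyl peptide receptor that draws phagocytes toward bacterial and host peptides, came next. The arrays gave 1.87, 1.38 and 1.42 with treated RNA in Cy5 and 1.56, 1.24 and 1.32 with it in Cy3. Set 1 was the highest in both orientations. The mean was 1.46 ± 0.22 (SD, n = 3 sets), a 2.76-fold rise (limma, adjusted p = 1.15e-05). Fpr2 has close relatives in the mouse genome and 1 probe here, so signal from a relative cannot be told apart from its own.

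The promoter windows of these 2 genes are shown because they had the largest rises. Each runs from 250 bases before to 50 bases after the annotated start, from RefSeq on GRCm38.p6, written 5′ to 3′ on the gene's strand: chr15:103310389-103310688 on the minus strand for Gpr84 and chr17:17887574-17887873 on the plus strand for Fpr2. Capitals mark matches to GGGANTTTC, the core of the site of NF-kB, a transcription factor that LPS activates (N is any base). Gpr84 holds it 2 times. Fpr2 holds none of the 6 motifs searched, which are spelled out with the last sequences.
Gpr84: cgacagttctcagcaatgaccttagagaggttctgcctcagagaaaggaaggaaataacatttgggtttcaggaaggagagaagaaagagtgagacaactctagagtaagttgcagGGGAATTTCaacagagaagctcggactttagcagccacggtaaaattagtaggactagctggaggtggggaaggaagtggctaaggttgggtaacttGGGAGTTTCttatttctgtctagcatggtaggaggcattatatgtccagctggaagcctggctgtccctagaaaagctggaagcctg
Fpr2: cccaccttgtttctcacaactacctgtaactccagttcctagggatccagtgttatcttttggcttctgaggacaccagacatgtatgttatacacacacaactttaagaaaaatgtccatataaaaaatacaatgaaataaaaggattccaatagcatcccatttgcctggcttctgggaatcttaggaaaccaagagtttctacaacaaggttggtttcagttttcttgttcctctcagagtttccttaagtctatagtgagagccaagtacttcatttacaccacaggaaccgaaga

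Of 4 adhesion receptors tested, 1 (25%) was called higher and 1 (25%) lower, beside 14% and 15% of all features. Adgre1 encodes a surface protein that is widely used as a marker of mouse macrophages. Its log2 ratios were 1.28, 1.27 and 1.08 with treated RNA in Cy5 and 1.15, 1.00 and 0.84 with it in Cy3. Every array lay above 0, with a mean of 1.10 ± 0.13 (SD, n = 3 sets; limma, adjusted p = 9.75e-06), a 2.15-fold rise. Adgre5, which encodes CD97, a leukocyte adhesion receptor that binds CD55, fell on all 6 arrays of the probe tested. That probe gave -0.38, -0.88 and -0.61 with treated RNA in Cy5 and -0.75, -0.19 and -0.66 with it in Cy3, with a mean of -0.58 ± 0.053 (SD, n = 3 sets; limma, adjusted p = 7.01e-05). The set means were closer to each other than the single arrays were. A second Adgre5 probe, measured on 5 arrays and not in the test, differed by orientation: -1.71 and -0.39 with treated RNA in Cy5 against 1.21, 0.24 and 0.41 with it in Cy3. Averaged over both probes where measured, with probes measured in at least 2 sets, Adgre5 was at -0.36 (limma, adjusted p = 0.00100). The set 3 array with treated RNA in Cy5 gave a value for the tested probe alone. Adgrf4 (0.053 ± 0.20) and Adgrg1 (-0.0093 ± 0.065), the other adhesion receptors, were not called.

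Chemokine receptors steer cells along gradients of chemokines. Of 15 tested, 6 (40%) were called higher, beside 14% of all features, and 1 (6.67%) was called lower, beside 15%. The other 8 were not called, the median was 0.080, and these shares were not tested against the background. Ccr9, the receptor for CCL25 and best known for homing of T cells to the gut, had log2 ratios of 0.72, 0.66 and 0.58 with treated RNA in Cy5 and 0.62, 0.65 and 0.61 with it in Cy3. These lay close together, with a mean of 0.64 ± 0.038 (SD, n = 3 sets; limma, adjusted p = 3.63e-05). Cxcr2, the receptor for neutrophil-attracting chemokines such as CXCL1, gave 0.34, 0.26 and 0.39 with treated RNA in Cy5 and 0.41, 0.30 and 0.46 with it in Cy3. All were above 0, with a mean of 0.36 ± 0.073 (limma, adjusted p = 0.00101).

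Both means hide probes that disagree in size. Of the 3 Ccr9 probes, probe 9057 rose by 1.66 ± 0.15 (limma over single probes, adjusted p = 1.24e-06), probe 14441 by 0.16 ± 0.035 (adjusted p = 0.0296), and probe 7290 stood at 0.090 ± 0.027 (adjusted p = 0.188). Probe 9057 was between 1.42 and 1.88 on all 6 arrays. Of the 3 Cxcr2 probes, probe 7419 rose by 1.03 ± 0.21 (adjusted p = 4.84e-05), while probe 12722 stood at 0.11 ± 0.081 (adjusted p = 0.151) and probe 5998 at -0.066 ± 0.073 (adjusted p = 0.383). The gene means therefore rest mainly on 1 probe each. With the median over probes in place of the mean, Ccr9 was at 0.29 and still called (adjusted p = 0.00688), while Cxcr2 was at 0.21 and was not called (adjusted p = 0.0901).

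Ccr1, a receptor for CCL3 and CCL5 on monocytes and macrophages, was modestly higher. Its arrays gave 0.43, 0.43 and 0.14 with treated RNA in Cy5 and 0.22, 0.14 and 0.25 with it in Cy3, all above 0. The mean was 0.27 ± 0.066 (SD, n = 3 sets; limma, adjusted p = 0.00385), and the call was not made in either orientation alone. Its 2 probes differed, at 0.52 ± 0.26 for probe 9893 and 0.013 ± 0.24 for probe 9184. Ccr10, a receptor for skin and mucosal chemokines, lay between 0.13 and 0.24 on the 6 arrays, with a mean of 0.19 ± 0.018 (limma, adjusted p = 0.0119). Without set 1 its adjusted p was 0.0521 at the same mean of 0.19. Of its 3 probes, 2 were called higher (0.34 and 0.26) and 1 stood at -0.035.

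The remaining 2 chemokine receptor calls rested on values that crossed 0. Cxcr6, the receptor for CXCL16, had log2 ratios of -0.35, -0.51 and 0.26 with treated RNA in Cy5 and 0.47, 0.97 and 0.56 with it in Cy3. The orientations did not overlap, and the arrays with treated RNA in Cy5 alone averaged -0.20 (limma, adjusted p = 0.410). The mean over sets was 0.23 ± 0.18 (SD, n = 3 sets; limma, adjusted p = 0.0386), with 0.14 and an adjusted p of 0.152 without set 3. A second Cxcr6 probe, 13516, was measured on 5 arrays and averaged 0.064 over sets 2 and 3. With that probe averaged in where measured, Cxcr6 was at 0.13 and was not called (limma, adjusted p = 0.130). Cxcr5, the receptor for CXCL13, ranged from -0.50 to 0.70 over the arrays, with 5 of 6 above 0. Its mean was 0.17 ± 0.074 (limma, adjusted p = 0.0333), and it was not called without set 2 (0.17, adjusted p = 0.0672) or without set 3 (0.13, adjusted p = 0.114). Both calls also depend on averaging same-numbered arrays. With the 6 arrays fitted singly, the adjusted p was 0.531 for Cxcr6 and 0.521 for Cxcr5 with no replicate block, 0.163 and 0.145 with the set number as a random block, and 0.677 and 0.680 as a fixed block.

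Cxcr3, the receptor for the interferon-induced chemokines CXCL9 and CXCL10, was the only chemokine receptor called lower of the 15. It stood at -0.67, -0.32 and -0.55 with treated RNA in Cy5 and at -0.74, -0.77 and -0.72 with it in Cy3. All 6 arrays were below 0. The mean was -0.63 ± 0.080 (SD, n = 3 sets; limma, adjusted p = 6.80e-05), which is 1.55-fold lower. A second Cxcr3 probe, 15425, was measured on 3 arrays and stayed outside the test, at -0.46 with treated RNA in Cy5 and at 0.24 and 0.36 with it in Cy3. With exact zeros kept as values the gene averaged -0.30 (adjusted p = 0.0373).

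Several further chemokine receptors were not called. Ccr2, which brings monocytes out toward CCL2, averaged -0.0031 ± 0.086 (SD, n = 3 sets) on probe 6440, whose arrays ran from -0.40 to 0.40. A second Ccr2 probe, 1385, had values in sets 2 and 3 alone. It stood at -0.46 and -0.34 with treated RNA in Cy5 and at -0.30 and -0.37 with it in Cy3, below 0 on all 4 arrays. Its mean was -0.37 ± 0.019 (SD, n = 2 sets; limma over probes measured in at least 2 sets, adjusted p = 0.00435), so the probes disagree. Averaged over both where measured, with set 1 from probe 6440 alone, Ccr2 was at -0.12 (limma, adjusted p = 0.150). Cx3cr1, the fractalkine receptor, averaged -0.044 ± 0.11, Cxcr4, the CXCL12 receptor, 0.085 ± 0.064, and Ccr3, the eotaxin receptor, -0.070 ± 0.045. Over probes measured on all 6 arrays, the adjusted p of these 4 genes in limma ran from 0.224 to 0.972. Probe 18479 of Ccr3 was called lower on its own (-0.19, limma over single probes, adjusted p = 0.0319). Ccr7, the receptor for lymph node chemokines, had no measured value on any array.

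Ccrl2, a chemerin-binding relative of the chemokine receptors, had no complete set 1 and stayed outside the test. Probe 294 gave 2.03 and 2.68 in sets 2 and 3 with treated RNA in Cy5, and 1.74 and 2.24 with it in Cy3. All 4 values were high. Their set mean was 2.17 ± 0.41 (SD, n = 2 sets; limma over probes measured in at least 2 sets, adjusted p = 3.70e-05), in a fit added after the data were seen. Probe 15296 of the same gene stood at 0.094 ± 0.074 (adjusted p = 0.347), so the probes disagree. Averaged over both probes, Ccrl2 was at 1.13 (adjusted p = 1.11e-04).

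**Figure D2:**
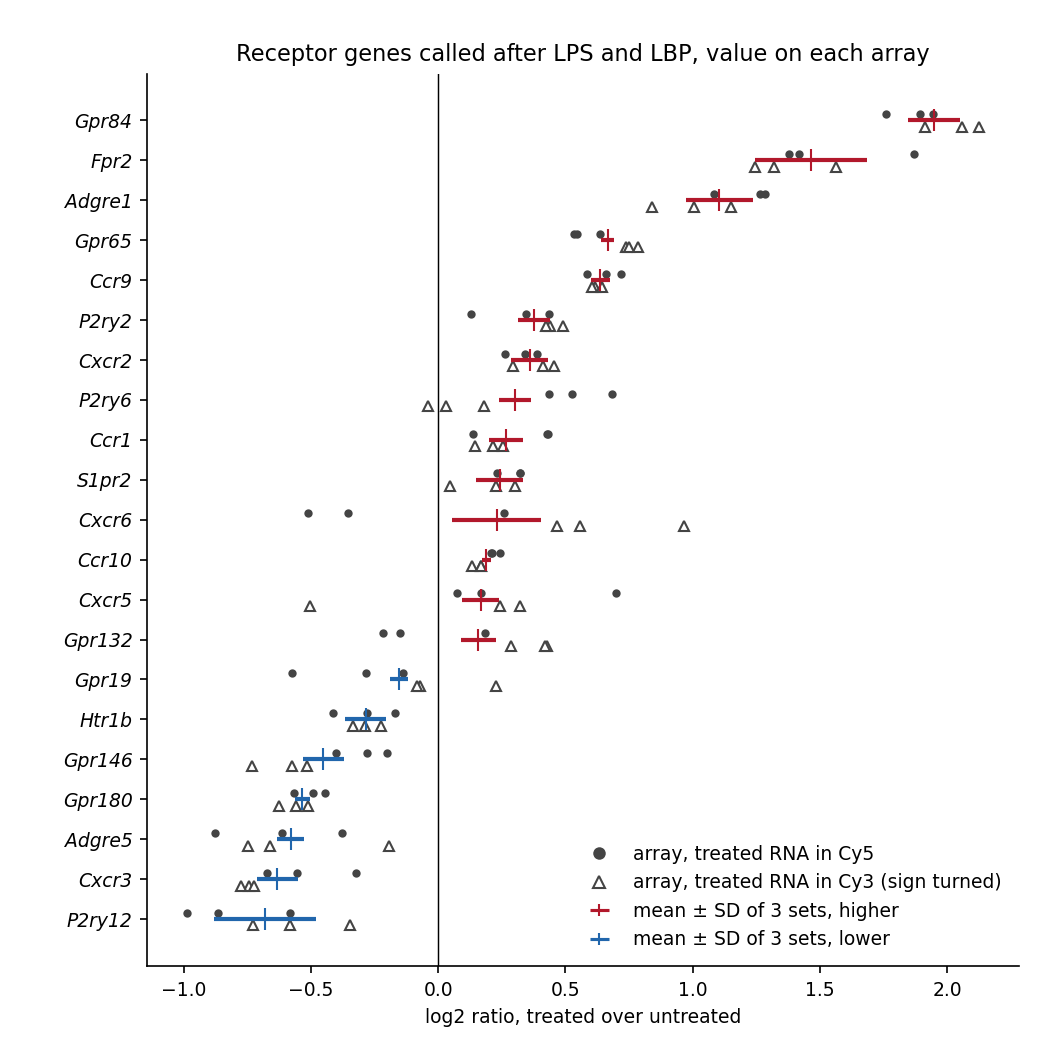
Log2 ratio (treated over untreated, x axis) on each array for the 21 called receptor genes (y axis): filled circles have treated RNA in Cy5, open triangles have it in Cy3 with the sign turned, and bars give the mean ± SD of 3 sets in red (higher) or blue (lower). Gpr84, Fpr2 and Adgre1 stand apart at means of 1.95, 1.46 and 1.10. Cxcr6, Cxcr5, Gpr132, Gpr19 and P2ry6 have arrays on both sides of 0.

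Nucleotide receptors sense ATP, UTP, UDP and ADP that leak or are released from cells. Of 6 tested, 2 (33.3%) were called higher and 1 (16.7%) lower, beside 14% and 15% of all features. P2ry2, a receptor for ATP and UTP, gave 0.34, 0.13 and 0.44 with treated RNA in Cy5 and 0.44, 0.49 and 0.42 with it in Cy3. The mean was 0.38 ± 0.061 (SD, n = 3 sets; limma, adjusted p = 6.73e-04). Its 3 probes were each called higher, at 0.54, 0.33 and 0.26. With treated RNA in Cy5 alone the gene averaged 0.30 and was not called.

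P2ry6, the UDP receptor linked to phagocytosis, differed by orientation: 0.53, 0.68 and 0.44 with treated RNA in Cy5 against 0.18, -0.04 and 0.03 with it in Cy3. The orientations did not overlap. The mean over sets was 0.30 ± 0.062 (SD, n = 3 sets; limma, adjusted p = 0.00200), and the arrays with treated RNA in Cy3 alone averaged 0.056 (adjusted p = 0.589). On the 6 arrays singly it was not called with no block (adjusted p = 0.0722) or a fixed block by set number (0.191). P2ry2 and P2ry6 are next to each other in the RefSeq order of protein-coding genes.

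P2ry12, the ADP receptor of platelets and microglia, was the gene with the largest fall among the 93. Its arrays stood at -0.99, -0.58 and -0.86 with treated RNA in Cy5 and at -0.73, -0.34 and -0.58 with it in Cy3. All lay below 0, and set 2 was the least changed in both orientations. The mean was -0.68 ± 0.20 (SD, n = 3 sets; limma, adjusted p = 4.02e-04), or 1.60-fold lower, and both of its probes were called lower (-0.82 and -0.54). P2ry14, the UDP-sugar receptor encoded close to P2ry12, was not called (-0.068 ± 0.12). P2ry13, another ADP receptor of that cluster, had values in set 2 alone, 0.063 with treated RNA in Cy5 and -0.21 with it in Cy3. The remaining nucleotide receptors, P2ry1 (-0.0091 ± 0.054) and P2ry4 (0.10 ± 0.094), were not called. A second probe of P2ry4, a UTP receptor, had values in sets 2 and 3 alone, at 0.45 and 0.40 with treated RNA in Cy5 and at 0.27 and 0.26 with it in Cy3. That probe, 4523, averaged 0.35 ± 0.018 (SD, n = 2 sets; limma over probes measured in at least 2 sets, adjusted p = 0.00547). Averaged over both probes where measured, P2ry4 was at 0.19 and was called higher (limma, adjusted p = 0.0280). Its set 1 value came from probe 16086 alone, so the sets differ in probes.

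Prostanoid receptors bind prostaglandins, and those coupled to cyclic AMP production act as brakes on macrophage cytokines. None of the 6 genes tested was called by limma, beside 14% of all features called higher and 15% lower. The 6 include Ptgfrn, which is not such a receptor, and their median was -0.0095. An unadjusted p below 0.05 in limma was seen in 2 of the 6, beside 4366 of all 11364 features. Ptger4, a prostaglandin E2 receptor that raises cyclic AMP, was the most variable: it stood at 0.23, -0.63 and -0.17 with treated RNA in Cy5 and at 0.70, 0.74 and 0.37 with it in Cy3. The orientations did not overlap, and the mean was 0.21 ± 0.22 (SD, n = 3 sets; limma, adjusted p = 0.0968). It passed the threshold without set 2 (0.28, adjusted p = 0.00192) and with treated RNA in Cy3 alone (0.60, adjusted p = 0.0128). Ptgir, the prostacyclin receptor, averaged -0.14 ± 0.081 (adjusted p = 0.0652). Ptger2, which also raises cyclic AMP, stood at 0.010 ± 0.040, Ptger3, which lowers it, at -0.11 ± 0.10, and Ptgfrn at -0.0036 ± 0.10.

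Lipid and proton receptors gave 3 further calls. Among 8 receptors for lysophospholipids, signalling lipids released from membranes, S1pr2 alone was called (12.5% higher, beside 14% of all features). This sphingosine 1-phosphate receptor lay above 0 on all 6 arrays, at 0.32, 0.23 and 0.32 with treated RNA in Cy5 and 0.30, 0.04 and 0.23 with it in Cy3. Its mean was 0.24 ± 0.092 (SD, n = 3 sets; limma, adjusted p = 0.00911), with 0.22 and an adjusted p of 0.0525 without set 3, and both of its probes were called higher. S1pr1 (0.029 ± 0.13), S1pr5 (-0.11 ± 0.18), Lpar1 (0.038 ± 0.13) and Lpar3 (-0.021 ± 0.18) were not called.

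Gpr65, a receptor that senses extracellular acid and raises cyclic AMP, rose on every array. Its values were 0.55, 0.54 and 0.64 with treated RNA in Cy5 and 0.74, 0.79 and 0.75 with it in Cy3. The orientations did not overlap, but both were above 0, and the mean was 0.67 ± 0.026 (SD, n = 3 sets; limma, adjusted p = 2.62e-05). A second Gpr65 probe had a value on 1 array (2.01) and was exactly 0 on the others, and with exact zeros kept as values the gene averaged 0.50 and was not called (adjusted p = 0.132). Gpr132, of the same family, was at -0.22, 0.19 and -0.15 with treated RNA in Cy5 and at 0.43, 0.29 and 0.42 with it in Cy3. The mean was 0.16 ± 0.069 (SD, n = 3 sets; limma, adjusted p = 0.0385), and the call was lost when any 1 of the sets was left out (adjusted p from 0.0617 to 0.240). A second Gpr132 probe had values on 4 arrays and stayed outside the test. With exact zeros kept as values, Gpr132 averaged 0.031 and was not called (limma, adjusted p = 0.586). On the tested probe, the mean of Gpr132 with treated RNA in Cy5 alone was -0.061. Fitted on the 6 arrays singly, its adjusted p was 0.367 with no block, 0.0771 with a random and 0.540 with a fixed block by set number.

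Of 27 numbered Gpr genes tested, 3 (11.1%) were called higher, namely Gpr84, Gpr65 and Gpr132, and 3 (11.1%) lower. Over all features these shares were 14% and 15%. Gpr180, counted among orphan receptors, was at -0.56, -0.45 and -0.49 with treated RNA in Cy5 and at -0.56, -0.63 and -0.51 with it in Cy3. These values lay close together, with a mean of -0.53 ± 0.029 (SD, n = 3 sets; limma, adjusted p = 8.10e-05). Gpr146, an orphan receptor tied to lipoprotein secretion in liver, was below 0 on all arrays, at -0.40, -0.28 and -0.20 with treated RNA in Cy5 and at -0.57, -0.73 and -0.51 with it in Cy3. Its mean was -0.45 ± 0.081 (limma, adjusted p = 3.65e-04), with no call from the arrays with treated RNA in Cy5 alone.

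Gpr19, an orphan receptor, had a small mean of -0.15 ± 0.037 (SD, n = 3 sets; limma, adjusted p = 0.0313). With treated RNA in Cy3 alone its mean was 0.024, and it was not called without set 1 (-0.14, adjusted p = 0.153) or without set 2 (-0.14, adjusted p = 0.134). On the 6 arrays singly its adjusted p was 0.353 with no block, 0.0663 with a random and 0.535 with a fixed block. One probe, 18467, was lower (-0.31, adjusted p = 0.00202) and the other, 2700, stood at 0.0045. Gpr35, proposed to sense kynurenic acid, was near the threshold at -0.13 ± 0.037 (limma, adjusted p = 0.0628), with probe 18171 called lower (-0.31) and probe 18434 at 0.056. Gpr34, a lysophosphatidylserine receptor of microglia and macrophages, averaged -0.042 ± 0.034, and Gpr12 averaged 0.00069 ± 0.010.

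Receptors for biogenic amines, which include the serotonin, dopamine, histamine, muscarinic and adrenergic receptors, were mostly not called. Of 24 genes tested, the channels Htr3a and Htr3b among them, limma called 0 higher and 1 (4.17%) lower, beside 14% and 15% of all features. An unadjusted p below 0.05 in limma was seen in 2 of the 24, beside 4366 of all 11364 features, and the median was 0.011. Htr1b, a serotonin receptor that lowers cyclic AMP, was the gene called. It was at -0.28, -0.41 and -0.17 with treated RNA in Cy5 and at -0.34, -0.29 and -0.22 with it in Cy3. The mean was -0.28 ± 0.079 (SD, n = 3 sets; limma, adjusted p = 0.00349), and both of its probes were called lower. The histamine receptors Hrh1 (0.017 ± 0.045) and Hrh2 (0.059 ± 0.11) and the muscarinic receptor Chrm1 (-0.0040 ± 0.027) were not called, nor was Htr3a (0.098 ± 0.020), the largest value among the uncalled genes of the group. Adora3, an adenosine receptor, averaged 0.13 ± 0.14 (limma, adjusted p = 0.149) and was called only without set 1 (0.21, adjusted p = 0.0335). Ednrb, an endothelin receptor, averaged 0.030 ± 0.041. Other receptors of interest in macrophages, Adora2a, Adora2b, Fpr1, Gpr18 and Gpr183, were not analysed here.

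Single probes were also fitted, since 40 receptor genes had several probes measured on all 6 arrays. Of 138 receptor probes, 22 were called higher, beside 14.1% of all probes, and 12 were called lower, beside 14.6%. A called probe was found in 15 of the 40 genes, and in 11 of these another probe of the gene was not called. In 4 genes, P2ry2, P2ry12, Htr1b and S1pr2, all probes were called in 1 direction. No gene had probes called in opposite directions. Ccr3 (-0.19), Ccr8 (0.16), Gpr27 (-0.18), Gpr50 (0.22) and Htr1d (0.18), named after their values were seen, each had 1 called probe although the gene was not called. Another 17 receptor probes were measured in at least 2 sets but not on all 6 arrays. In that fit 3 were called higher (of Ccrl2, P2ry4 and Gpr85), beside 13% of its 14612 probes, and 1 was called lower (of Ccr2), beside 13.2%.

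**Figure D3:**
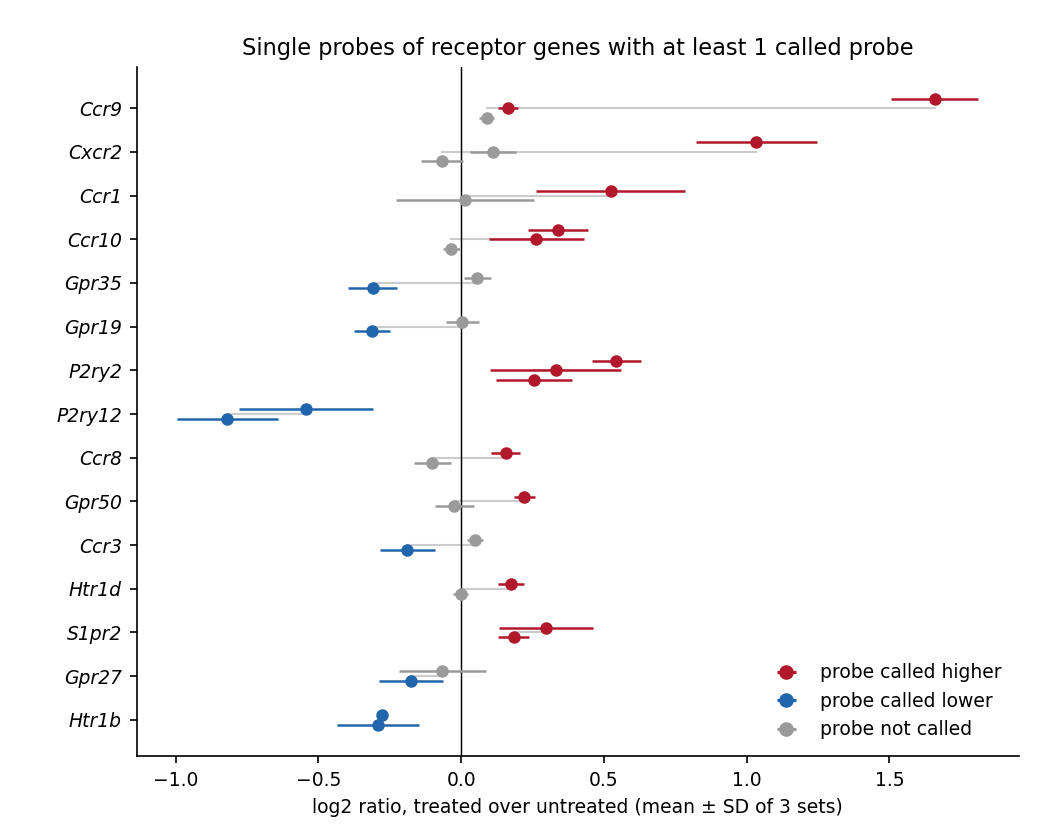
Log2 ratio (mean ± SD of 3 sets, x axis) of each probe of the 15 receptor genes that have several probes and at least 1 called probe (y axis). Red probes are called higher, blue lower and grey not called. One probe each of Ccr9 (1.66) and Cxcr2 (1.03) lies far from the other probes of its gene, whereas the probes of P2ry12 and Htr1b lie together below 0.

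The 2 dye orientations were then compared for each receptor. In the test over set means, limma called a dye effect in 0 of 93 receptor genes and 0 of 11364 features (0%), and 22 receptor genes (23.7%) had an unadjusted p below 0.05, beside 23.1% of all features. Tested on the 6 arrays singly, 4 receptor genes (4.30%) were called, beside 4.88% of all features. Both shares were near the background. In 8 receptor genes, Ccr6, Chrm1, Drd5, Gpr12, Gpr35, Gpr89, Hrh1 and Hrh2, all arrays of 1 orientation had the opposite sign to all arrays of the other. None of these 8 was called for treatment, but opposite signs largely cancel in the set means that this test uses. How many of all features show the pattern was not counted. Among called genes, Cxcr6, Gpr132 and Gpr19 had opposite mean signs in the orientations.

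**Figure D4:**
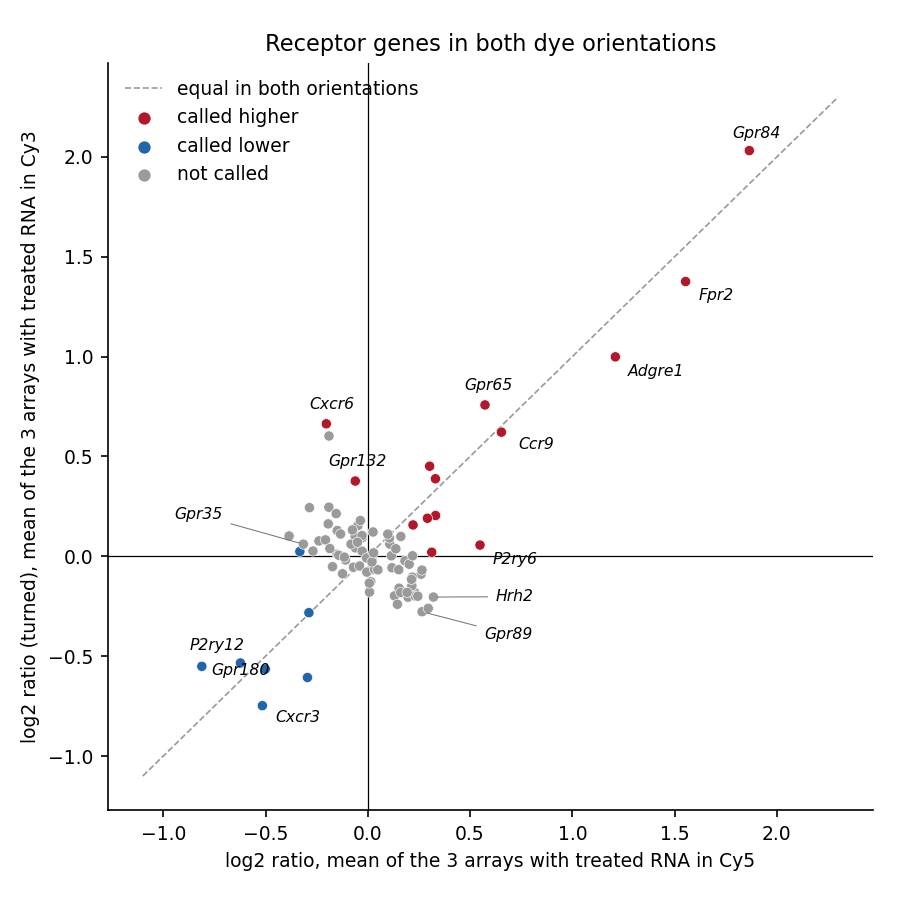
Mean log2 ratio of the 3 arrays with treated RNA in Cy5 (x axis) against the turned mean of the 3 arrays with it in Cy3 (y axis), 1 point per receptor gene, with a dashed line where both are equal. Gpr84, Fpr2 and Adgre1 lie near the line, P2ry6 has 0.55 in one orientation and 0.056 in the other, and Cxcr6 and Gpr132 have opposite signs.

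Receptors act through G proteins and the enzymes of cyclic AMP. Of 62 such genes tested, 10 (16.1%) were called higher and 13 (21.0%) lower, beside 14% and 15% of all features, with a median of 0.0089. Pde4b, a phosphodiesterase that breaks down cyclic AMP, had the largest change, with set values of 1.84, 1.38 and 1.83 and a mean of 1.68 ± 0.27 (SD, n = 3 sets; limma, adjusted p = 1.22e-05). Of 11 phosphodiesterase genes, Pde1b (0.36) was also higher and Pde8a (-0.29) lower. Of 5 adenylyl cyclases, which make cyclic AMP, Adcy6 (-0.60 ± 0.16) and Adcy9 (-0.34 ± 0.11) were lower and Adcy1 (0.39 ± 0.053) was higher.

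Among 14 G protein alpha subunits, Gna13 rose (0.34 ± 0.059) while Gna11 (-0.24 ± 0.077) and Gna14 (-0.15 ± 0.010) fell. Of 15 beta and gamma subunits, 3 were called higher and 2 lower, beside 14% and 15% of all features. They were led by Gng12 (0.29), Gnb5 (-0.26), Gng2 (0.22) and Gnb3 (0.18). Of 5 receptor kinases and arrestins, which switch receptors off, Grk6 (-0.21) fell and Sag (0.15) rose. In the list of protein kinase A, Epac and their partners, 2 of 12 were called higher and 5 lower, beside 14% and 15% of all features. These included Crem (0.32), a cyclic AMP-responsive transcription factor, and the anchoring proteins Akap1 (-0.32), Akap8 (-0.25) and Akap12 (-0.21).

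Receptors of the same superfamily with other names gave 5 higher (9.26%) and 2 lower (3.70%) calls among 54 tested, beside 14% and 15% of all features, with a median of 0.0039. Hcar2, the receptor for niacin and ketone bodies, averaged 2.43 ± 0.082 (SD, n = 3 sets; limma, adjusted p = 1.51e-07). C3ar1, the receptor for the complement fragment C3a, averaged 2.35 ± 0.093 (adjusted p = 1.63e-07). Both lay above Gpr84. Calcrl, a receptor for calcitonin gene-related peptide and adrenomedullin, rose by 0.99 ± 0.20 and Ackr1, an atypical chemokine receptor, by 0.58 ± 0.15.

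In gene order, Ccr9, Cxcr6 and Ccr1, all called higher, lie close together in 1 cluster of chemokine receptor genes, followed directly by Ccr1l1 (0.080), Ccr3 and Ccr2, which were not called. Ccr1 and Ccr1l1 are close relatives, so their probes may share signal.

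Promoter windows of 300 bases were found for 84 of the 102 genes, among them 10 of those called higher and 6 of those called lower. Motifs were searched on both strands. A gene counted as a match when any of its windows held the motif, whereas the percentages are of single windows. Genes with several windows had more chances, so the 2 kinds of share are not directly comparable. The NF-kB core GGGANTTTC was in 2 of 10 higher genes (Gpr84 and Cxcr2), in 0 of 6 lower genes and in 3 of 62 uncalled genes, beside 1.11% of all 32851 windows. With a further C at its 3′ end, the full site and the form searched first, it was in 0 of 10, 0 of 6 and 2 of 62, beside 0.411%. The AP-1 site TGANTCA was in 0 of 10, in 1 of 6 (Gpr146) and in 14 of 62 uncalled genes, beside 7.81%. The core of the interferon-stimulated response element, GAAANNGAA, was in 0 of 10, in 1 of 6 (Gpr19) and in 2 of 62, beside 8.56%. The cyclic AMP response element TGACGTCA was in 1 of 10 (S1pr2), 0 of 6 and 0 of 62, beside 1.79%. The PU.1 site GAGGAAGT was in 0 of 10, in 1 of 6 (Cxcr3) and in 4 of 62, beside 3.20%. A match is a description of letters in the window, and its absence says nothing of the factor.

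The windows of S1pr2 and Cxcr3 are shown for their matches, in capitals: the cyclic AMP response element in S1pr2 and, on the opposite strand, the PU.1 site in Cxcr3, where it reads ACTTCCTC. That of P2ry12, the gene with the largest fall, held none of the 6 motifs. They run over chr9:20976744-20977043, chrX:101734098-101734397 and chr3:59262936-59263235 of GRCm38.p6 (RefSeq), all on the minus strand.
S1pr2: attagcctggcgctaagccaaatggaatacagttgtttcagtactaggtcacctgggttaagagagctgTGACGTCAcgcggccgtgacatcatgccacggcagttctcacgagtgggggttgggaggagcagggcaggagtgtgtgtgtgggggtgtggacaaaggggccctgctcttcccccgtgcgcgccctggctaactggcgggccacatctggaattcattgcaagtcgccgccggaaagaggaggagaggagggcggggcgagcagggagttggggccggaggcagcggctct
Cxcr3: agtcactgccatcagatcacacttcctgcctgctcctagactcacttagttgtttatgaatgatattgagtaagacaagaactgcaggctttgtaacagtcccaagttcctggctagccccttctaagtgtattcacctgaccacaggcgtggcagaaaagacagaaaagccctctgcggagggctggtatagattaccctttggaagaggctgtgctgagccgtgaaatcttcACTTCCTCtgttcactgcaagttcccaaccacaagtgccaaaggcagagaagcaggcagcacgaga
P2ry12: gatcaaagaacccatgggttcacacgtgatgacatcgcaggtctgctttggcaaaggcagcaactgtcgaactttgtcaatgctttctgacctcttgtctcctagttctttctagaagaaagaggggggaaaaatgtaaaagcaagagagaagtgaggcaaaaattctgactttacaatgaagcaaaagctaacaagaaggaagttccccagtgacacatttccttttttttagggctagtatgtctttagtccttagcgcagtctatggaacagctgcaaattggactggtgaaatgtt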

How the data were processed

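Per the labels, 6 two-colour arrays compared treated with untreated RNA. The deposited values are log2 ratios made by the authors, 1 per probe and array. The base was read from the maximum, 6.64, the log2 of 100. The sources used here do not name the scanner, background correction, normalization or build. No intensities were used, so any compression of dim spots is unknown. Exact zeros were taken as not measured. Of 16281 probes, 13738 had 1 annotated symbol, 52 several and 2491 none. By Entrez ID, 13694 matched the GRCm38.p6 gene table and 0 symbols changed. The 13415 probes with values on all 6 arrays were averaged per gene into 11364 features, 9574 of them named.

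It was assumed that each set is a dye swap of 1 RNA pair, and each counted as 1 replicate. Set values were fitted over the whole table with limma 3.58.1 (lmFit, eBayes, two-sided) in R 4.3.3, after testing on simulated data. The number of arrays limits the precision.

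Members and lists were chosen with earlier results of these data known. Genes named were all called receptors and the largest and smallest uncalled change of each class. Further names were partly measured genes changed by at least 1 on the log2 scale. A set list of receptors and up to 4 called genes per partner list completed them. Alternatives changed normalization, blocking, orientation, sets, probe averaging, the handling of zeros and thresholds.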

Additional observations from a re-analysis of the deposited data

Results flagged for a closer look

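In a test of the dye effect on the 6 single arrays, with dye and treatment terms and chosen after the data were seen, limma called 4 receptor genes and 554 of 11364 features. For these 4, the values with treated RNA in Cy5 and in Cy3 differed. The dye effect, given here as the log2 deviation of the arrays with treated RNA in Cy5 from the mean of both orientations, was 0.27 for Gpr89 (limma, adjusted p = 0.0290), whose orientations averaged 0.27 ± 0.075 and -0.28 ± 0.024 (SD, n = 3 arrays each). For Hrh2 it was 0.26 (limma, adjusted p = 0.0442), with orientation means of 0.32 ± 0.17 and -0.20 ± 0.046. For P2ry6 it was 0.25 (limma, adjusted p = 0.0451), with means of 0.55 ± 0.12 and 0.056 ± 0.11. For Gpr35 it was -0.19 (limma, adjusted p = 0.0499), with means of -0.31 ± 0.095 and 0.061 ± 0.060. In the test over set means each of the 4 had an adjusted p of 0.166 in limma. The fit on single arrays had no block for the set number. Before turning, same-numbered arrays deviated from their group means with correlations from 0.0203 to 0.512, so its p-values can be too small.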

How the results depend on the processing

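Of the 21 called receptor genes, 8 kept their call under all settings that gave a value, single probes apart: Adgre1, Adgre5, Ccr9, Cxcr3, Fpr2, Gpr180, Gpr84 and P2ry12. The other 13 lost it under at least 1. The count of genes called higher, 14, fell to 9 with the set number as a fixed replicate block on the 6 arrays, to 9 with treated RNA in Cy5 alone and to 5 when limma tested for changes beyond 1.2-fold. Leaving out each set in turn gave 11 to 13 higher calls, 6 to 8 lower calls and 17 to 18 calls among signalling partners, against 23 with all sets. The dye effect was called in 4 of 93 receptor genes (4.30%) when the 6 arrays were tested singly, beside 4.88% of all features, against 0 over set means. Signs turned for Cxcr6 (-0.20) and Gpr132 (-0.061) with treated RNA in Cy5 alone, for Gpr19 with treated RNA in Cy3 alone (0.024), and for single probes of Ccr10 (-0.035), Cxcr2 (-0.066) and Gpr19 (0.0045). Neither orientation alone can separate dye from treatment. The cause of the other differences was not tested. With the set number as a random replicate block, 11 genes were higher and 6 lower, and with no replicate block 10 and 6. The correlation fitted for the random block was -0.513. A negative correlation narrows the error of the mean, so that fit is no stricter check than the one without a block. Deviations of opposite sign also cancel in the set means, which narrows the spread of the set values. Under none of the block, orientation, 1.2-fold or left-out-set settings were treatment calls over all features counted. A shift of the whole table therefore cannot be told apart from one of the receptors. Same-numbered arrays deviated from their group means with correlations from -0.512 to -0.0203 after turning and from 0.0203 to 0.512 before it. Of the 6 arrays, 0 and 4, respectively, correlated best with their own number. These values do not show that the numbers pair the samples, and averaging by set stays an assumption. The table holds no signal over background, so a limit from dim spots could not be set.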
